A study of Mus musculus with 2 samples.

Results

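The thioredoxin system of spermatids is described here through 8 genes of the 50686 measured: the sperm thioredoxins Txndc2, Txndc8 and Nme8, the general thioredoxin Txn1, the thioredoxin reductases Txnrd1, Txnrd2 and Txnrd3, and the peroxiredoxin Prdx6. They were chosen by symbol, with earlier results of these data known, and each was followed through all 2552 cells of both mice. All 8 symbols had a row in the count matrix and at least 1 UMI (unique molecular identifier, which counts 1 captured RNA molecule). Txndc8 RNA rose first in the unnamed group that follows pachytene. As a share of all UMIs on genes it was highest around round spermatids, but its direction from there to elongating spermatids depended on the scaling. Txndc2 RNA came later and was highest in late spermatids, and Nme8 RNA was already high in pachytene cells. The reductase Txnrd3 ran the other way, and as a share of all UMIs on genes it went from its highest level in pachytene cells to its lowest in late spermatids. In tests scaled so that the bulk of genes is equal between groups, Txnrd3 did not differ between pachytene cells and the unnamed group. Under this scaling it also did not differ between early spermatocytes and elongating spermatids, although its shares of UMIs did not overlap there.

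Thioredoxins are small proteins that reduce disulfide bonds in other proteins and are themselves reduced by thioredoxin reductases, which take their electrons from NADPH and carry selenocysteine in their active site. In late sperm development the chromatin, the mitochondrial capsule and the fibres of the tail are cross-linked by disulfides, and male germ cells make thioredoxins of their own, of which the products of Txndc2 and Nme8 are known from the fibrous sheath of the tail and that of Txndc8 from the forming acrosome. Peroxiredoxins remove peroxides through a reactive cysteine.

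Single-cell RNA of testis was measured in 2 wild-type mice of the strain C57Bl/6J Crl, both 8 weeks old and untreated, with 1 droplet library per mouse. The paper states that a part of the testis was used and that the suspension was strained, partly to keep somatic cells few. There was no treated or mutant group, so the comparisons are between cell groups that both animals share. The libraries held 1237 and 1315 cells and 27450497 and 30302332 UMIs, with medians of 17871 and 19184 UMIs per cell, and 0 cell barcodes were shared between them. Only 3′ ends were counted, so levels are given on the counts-per-million scale (CPM, a gene's UMIs scaled to the total UMIs on genes) and are not divided by gene length.

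Cells were grouped without the 8 genes and without a list of 71 related redox genes. Germ cells formed, in the order of a pseudotime computed without these genes, early spermatocyte-like cells (53 and 111 in mouse 1 and mouse 2), pachytene or later spermatocyte-like cells (312 and 220), a group of 317 and 386 cells that stayed unnamed, round spermatid-like cells (180 and 254), and elongating or condensing spermatid-like cells (366 and 335). They are called early, pachytene, unnamed, round and elongating from here on. The unnamed group was led by the Ssxb genes, and round spermatid, its best class, had only 2 of its markers at 1.5 times the level of all cells. Elongating cells formed 2 clusters, an earlier one (210 cells, median depth 22484.5 UMIs) and a later one (491 cells, median depth 11636 UMIs). Sertoli-like, spermatogonium-like and Leydig-like cells numbered 7, 6 and 5 and are given as values only. With single cells, fewer molecules per cell and a smaller share of the cell's RNA are different readings: the tests below are on shares of the RNA.

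The thioredoxin Txndc2 (ENSMUSG00000050612) lies on the minus strand of chr17:65637507-65642168 and Txndc8 (ENSMUSG00000038709) on the minus strand of chr4:57984027-58009124, both positions in GRCm38. The promoter windows of these 2 thioredoxins, which rose in spermatids, and of Txnrd3, which fell there, are printed from RefSeq (GRCm38.p6), from 250 bases before to 50 bases after the annotated start, each 5′ to 3′ on the strand of the gene. Capitals mark the letters TGACATCA on either strand, a variant of the cAMP response element TGACGTCA through which CREM acts in spermatids. The Txndc2 window is chr17:65642155-65642454, that of Txndc8 is chr4:58009077-58009376 and that of Txnrd3, on the plus strand, is chr6:89643738-89644037.
Txndc2: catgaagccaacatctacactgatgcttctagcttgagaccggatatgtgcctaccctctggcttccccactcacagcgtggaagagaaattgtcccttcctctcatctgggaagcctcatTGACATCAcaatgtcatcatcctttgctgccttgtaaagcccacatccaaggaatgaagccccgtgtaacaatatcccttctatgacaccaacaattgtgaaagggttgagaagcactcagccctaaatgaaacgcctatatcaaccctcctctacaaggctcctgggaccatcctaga
Txndc8: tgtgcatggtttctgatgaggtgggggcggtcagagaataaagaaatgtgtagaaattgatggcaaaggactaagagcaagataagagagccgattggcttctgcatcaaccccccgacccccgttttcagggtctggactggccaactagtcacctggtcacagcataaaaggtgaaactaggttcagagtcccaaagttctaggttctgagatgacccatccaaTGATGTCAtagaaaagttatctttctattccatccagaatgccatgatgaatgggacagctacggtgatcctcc
Txnrd3: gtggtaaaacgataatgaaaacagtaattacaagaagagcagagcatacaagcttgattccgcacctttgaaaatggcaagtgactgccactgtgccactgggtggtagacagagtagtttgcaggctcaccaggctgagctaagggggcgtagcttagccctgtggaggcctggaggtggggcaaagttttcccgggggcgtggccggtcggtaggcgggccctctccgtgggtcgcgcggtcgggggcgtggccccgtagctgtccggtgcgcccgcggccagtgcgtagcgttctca
The variant stands 129 bases before the start in Txndc2, and on the other strand 24 bases before it in Txndc8. RefSeq gave a further window for Txndc2, not printed, that held none of the motifs searched. The variant is present in 3.62% of all 32851 windows of this length. Among the members it was also in 1 of the 3 windows of Txnrd1, a gene that declined from pachytene cells on. The window of Nme8, the remaining sperm thioredoxin, and that of Txnrd3 held none of the motifs searched. The complete element TGACGTCA, found in 1.79% of windows, was in none of the 10 windows of the 7 members that had one. Its core TGACG, which the complete element contains and which 20.8% of windows hold, was found in 1 Txnrd1 window and in Txnrd2, and TATAAA, which 13.6% of windows hold, in Txn1. The variant was picked after the windows had been read, and counts of 3′ ends do not show which start was used.

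Txndc2 RNA increased in each step from pachytene cells to elongating spermatids. Its level was 10.5 and 11.8 CPM in pachytene cells, 23.8 and 27.5 CPM in the unnamed group, 132 and 162 CPM in round spermatids and 497 and 582 CPM in elongating spermatids of mouse 1 and mouse 2. The groups did not overlap between these steps. The increase was 1.27 ± 0.18 (log2 fold change ± SE) from pachytene to unnamed cells (edgeR quasi-likelihood test, Benjamini-Hochberg adjusted p = 2.62e-06), 2.77 ± 0.16 from unnamed to round (edgeR adjusted p = 3.11e-11) and 2.72 ± 0.15 from round to elongating cells (edgeR adjusted p = 4.05e-12). Within elongating cells, the level was 430 and 524 CPM in the earlier cluster and 540 and 638 CPM in the later one, again an increase. Scaled so that the bulk of genes is equal between groups, it was 0.88 ± 0.15 (edgeR adjusted p = 5.86e-05). The 2 clusters were not compared with total UMIs as the scale. In UMIs per cell Txndc2 went down, from 9.59 and 12.9 to 6.67 and 8.57. Mouse 2 was above mouse 1 in 4 of the 5 groups, the exception being early cells with 19.6 and 14.3 CPM. In these early cells of mouse 1 a single cell held 14 of the 21 Txndc2 UMIs.

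Droplets also take up free RNA from other cells, and at its low end Txndc2 stood close to a gene of condensing spermatids. In pachytene cells its level was 2.11% and 2.03% of that in elongating spermatids, and Prm1, the protamine gene of condensing spermatids, stood at 2.04% and 2.20% there. In early cells the values were 3.95% and 2.46% for Txndc2 and 4.23% and 2.85% for Prm1. The early values of mouse 1 rest largely on single cells. A single cell held 14 of the 21 Txndc2 UMIs there, and a single cell held 1512 of the 3241 Prm1 UMIs. Whether these were the same cell, or a mixed one, was not tested. In a fit without called doublets (droplets taken to mix cells), the direction of Txndc2 from early to pachytene cells changed, as given at the end. That step had not passed the test in the main fit. In the unnamed group the values were 4.79% and 4.72% for Txndc2 and 3.68% and 3.68% for Prm1. Levels of Txndc2 up to the pachytene group are not read as expression. The part of free RNA in them, and in the step from pachytene to unnamed cells, was not tested. In round spermatids the values parted, with 26.6% and 27.9% for Txndc2 against 4.84% and 4.26% for Prm1. When each cell was thinned to 5000 UMIs, 5.77% and 4.55% of pachytene cells, 40.0% and 54.7% of round cells and 93.7% and 91.3% of elongating cells held a Txndc2 UMI. Without thinning these shares were 25% (exact 95% binomial interval 20.3 to 30.2) and 31.8% (25.7 to 38.4), 82.8% (76.5 to 88.0) and 90.9% (86.7 to 94.2), and 99.5% (98 to 99.9) and 97.6% (95.3 to 99.0), at median depths of 20771, 22061 and, for the 2 elongating clusters, 22484.5 and 11636 UMIs per cell. Such intervals cover counting error only.

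**Figure D1:**
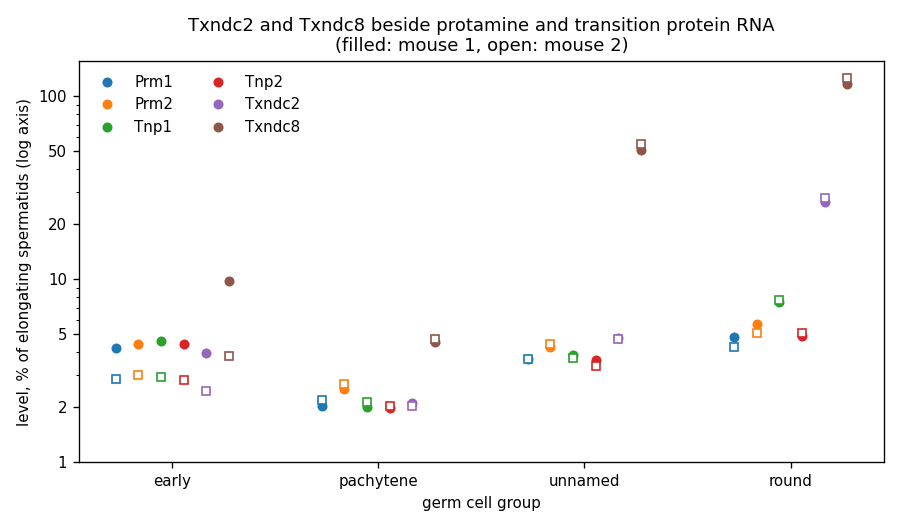
Level of each gene in 4 germ cell groups (x axis) as a percentage of its level in elongating spermatids of the same mouse (y axis, log scale), for 4 genes of condensing spermatids and for Txndc2 and Txndc8. Txndc2 lay below the 4 protamine and transition protein genes in early cells, close to them in pachytene cells, slightly above them in the unnamed group and far above them in round spermatids, and Txndc8 was above them in each of the groups plotted, by a wide margin from the unnamed group on. In early cells of mouse 1, a single cell held 14 of the 21 Txndc2 UMIs and a single cell held 1512 of the 3241 Prm1 UMIs. The elongating level was not the highest of Txndc8, which stood at 117% and 126% of it in round cells.

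Txndc8 RNA, which encodes a thioredoxin of the acrosome, came earlier than Txndc2 RNA and levelled off in spermatids. It stood at 24.2 and 22.9 CPM in pachytene cells, 271 and 267 CPM in the unnamed group, 627 and 610 CPM in round spermatids and 536 and 486 CPM in elongating spermatids. Both mice therefore had their highest value in round cells. The increase was 3.57 ± 0.21 on the log2 scale from pachytene to unnamed cells (edgeR adjusted p = 8.21e-12) and 1.46 ± 0.19 from unnamed to round cells (edgeR adjusted p = 1.80e-06). In the unnamed group Txndc8 was at 50.5% and 54.9% of its elongating level, against 3.68% and 3.68% for Prm1. In early cells Txndc8 had 52.3 and 18.5 CPM, the widest ratio between the mice among the 5 groups, and the early and pachytene levels did not differ by the test (-0.11 ± 0.26, edgeR adjusted p = 0.753). A single early cell of mouse 1 held 13 of the 56 Txndc8 UMIs there. The part of free RNA in the early and pachytene levels of Txndc8 was not tested.

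The direction of Txndc8 from round to elongating cells depended on the scaling. With TMM scaling, which sets the bulk of genes equal between groups, Txndc8 was higher in elongating cells by 0.58 ± 0.18 on the log2 scale (edgeR adjusted p = 0.0119). With total UMIs in place of TMM the change was -0.28 (edgeR adjusted p = 0.216). Elongating cells had TMM factors of 0.526 and 0.532, against 0.955 and 0.956 in round cells. Prm1 had 71657 and 49506 CPM in elongating cells, against 3467 and 2107 CPM in round cells. The part of Prm1 in the difference between the scalings was not tested. Between the 2 elongating clusters Txndc8 fell in CPM, from 588 and 515 to 503 and 457. With TMM scaling the change had the other direction and did not pass the test (0.37 ± 0.18, edgeR adjusted p = 0.107). Along the ordering Txndc8 peaked at 682 CPM in bin 15 of 20 in mouse 1 and at 667 CPM in bin 14 in mouse 2. Txndc2 peaked in bin 19 in both mice, at 564 and 683 CPM. It was already at 539 and 570 CPM in bin 16, and in bin 20 it had 540 and 472 CPM.

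Nme8 (ENSMUSG00000041138, minus strand of chr13:19645078-19697794) encodes a thioredoxin domain joined to nucleoside diphosphate kinase domains. Unlike the other 2 sperm thioredoxins it was already high in meiotic cells. It rose from 28.0 and 15.2 CPM in early cells to 204 and 200 CPM in pachytene cells, and then stood at 235 and 234 CPM in the unnamed group, 199 and 187 CPM in round spermatids and 218 and 225 CPM in elongating spermatids. The first step was an increase of 3.63 ± 0.19 on the log2 scale (edgeR adjusted p = 1.90e-11). From pachytene to unnamed and from unnamed to round cells the differences did not pass the test (0.28 ± 0.14, edgeR adjusted p = 0.0871, and -0.03 ± 0.14, edgeR adjusted p = 0.906), and the first of these passed with DESeq2 (0.41, adjusted p = 0.00077) and with the mouse as a block (0.28, edgeR adjusted p = 0.0218).

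Within elongating spermatids Nme8 increased again as a share of the RNA. It went from 138 and 172 CPM in the earlier cluster to 268 and 277 CPM in the later one. With TMM scaling the change was 1.38 ± 0.15 on the log2 scale (edgeR adjusted p = 1.58e-07). In UMIs per cell it went from 3.07 to 3.31 in mouse 1 and from 4.23 to 3.72 in mouse 2. Its highest bins were the last of the 20 in both mice, at 316 and 343 CPM. The earlier cluster alone did not differ from round cells by the test (0.21 ± 0.15, edgeR adjusted p = 0.278). For both clusters together the rise over round cells was 1.05 ± 0.14 with TMM scaling (edgeR adjusted p = 2.01e-06) and 0.20 with total UMIs (edgeR adjusted p = 0.21).

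Txn1 (ENSMUSG00000028367, minus strand of chr4:57943373-57956411) encodes the general cytosolic thioredoxin and is the direct neighbour of Txndc8, with 27615 bases and 0 other genes between them. It was almost absent from these germ cells. In all cells it had 52 and 50 UMIs, and its level was 0.289 and 0.678 CPM in pachytene cells, 1.52 and 0.239 CPM in the unnamed group, 0.724 and 1.2 CPM in round cells and 1.65 and 1.90 CPM in elongating cells. Early cells had 13 UMIs in mouse 1 (12.2 CPM, exact 95% Poisson interval 6.47 to 20.8) and 0 UMIs in mouse 2, where 3 counts would be 1.26 CPM. The fall from early to pachytene cells that passed the test (-2.82 ± 1.06, edgeR adjusted p = 0.0331) rests on mouse 1: without its early cells the value was 4.34 (edgeR adjusted p = 0.346).

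The same Txn1 row gave counts in the small clusters. The 6 spermatogonium-like cells held 4 and 12 UMIs (207 and 293 CPM), the 4 Leydig-like cells of mouse 2 held 13 UMIs (330 CPM, interval 176 to 564) and the 6 Sertoli-like cells of mouse 1 held 11 UMIs (159 CPM, interval 79.5 to 285). In the remaining Leydig-like cell of mouse 1 and Sertoli-like cell of mouse 2 it had 0 UMIs. Reads were aligned to a repeat-masked genome, and 174 of the last 500 bases of the Txn1 transcript (34.8%) align to at least 20 other genes, against 0 bases in the other members searched. The part of this in the level of Txn1 was not tested.

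**Figure D2:**
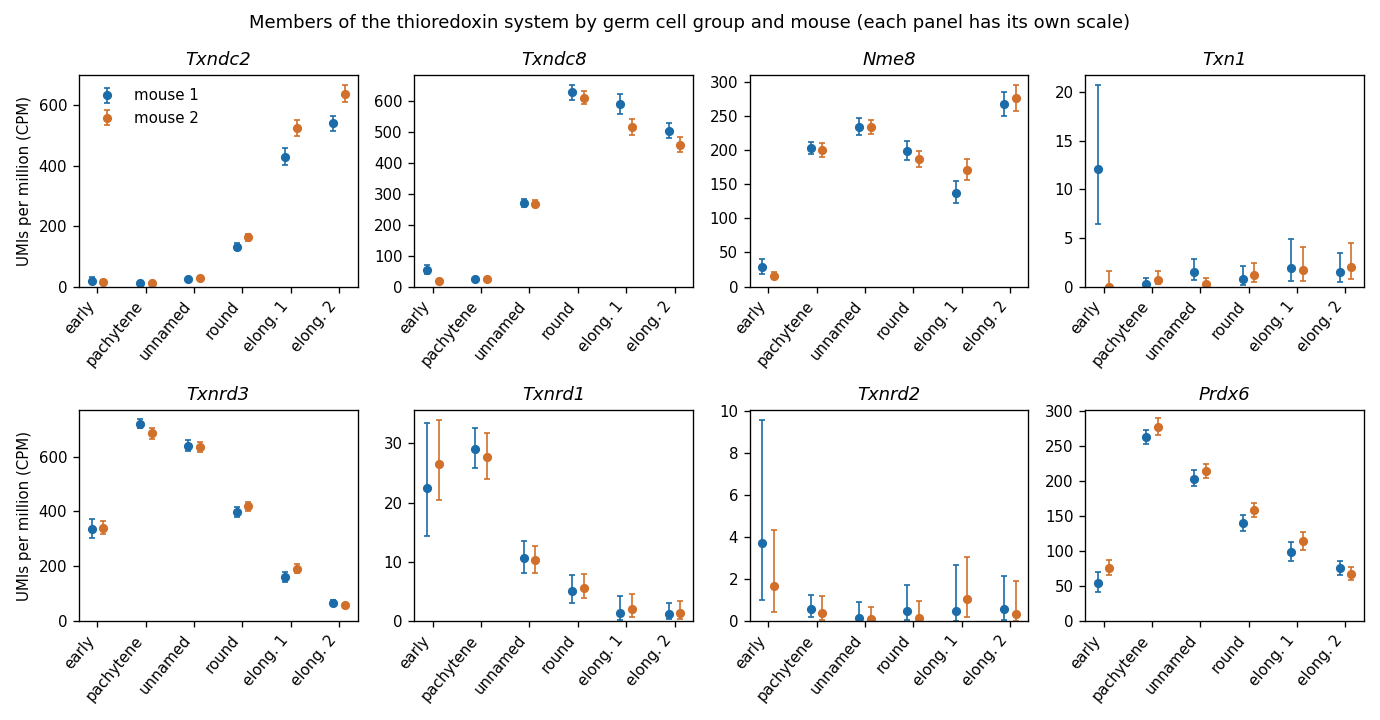
Level of each of the 8 genes (y axis, CPM, linear from 0, a scale of its own in each panel) in 6 germ cell groups (x axis, the 2 elongating clusters apart) for mouse 1 and mouse 2, with exact 95% Poisson intervals that cover counting error. Txndc2, Txndc8 and Nme8 have their highest levels in spermatids, Txnrd3 and Prdx6 in pachytene cells, and Txn1 and Txnrd2 are near 0 in both mice from pachytene on.

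Among the reductases, Txnrd3 was the main one in every germ cell group. Txnrd3 (ENSMUSG00000000811, plus strand of chr6:89643988-89675529) encodes thioredoxin-glutathione reductase, which carries an added glutaredoxin domain and is known from the testis. It had 336 and 341 CPM in early cells, 720 and 684 CPM in pachytene cells, 640 and 635 CPM in the unnamed group, 397 and 419 CPM in round spermatids and 103 and 124 CPM in elongating spermatids. Both mice thus had the highest level in pachytene and the lowest in elongating cells. The few Sertoli-like cells had 130 and 88.0 CPM of Txnrd3, on 9 and 1 UMIs. Spermatogonium-like cells had 155 and 97.7 CPM, on 3 and 4 UMIs, and Leydig-like cells 0 and 76.1 CPM, on 0 and 3 UMIs. The part of free RNA in the Txnrd3 level of elongating cells was not tested. The rise to pachytene was 1.34 ± 0.14 on the log2 scale (edgeR adjusted p = 1.45e-07), and pachytene and unnamed cells did not differ by the test (-0.08 ± 0.14, edgeR adjusted p = 0.63).

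From the unnamed group to round cells Txnrd3 fell by 0.39 ± 0.14 on the log2 scale (edgeR adjusted p = 0.0248), a call that was lost when any of the 4 sums compared was left out (edgeR adjusted p from 0.0826 to 0.218). From round to elongating cells the change was -1.0 ± 0.14 with TMM scaling (edgeR adjusted p = 4.36e-06) and -1.85 with total UMIs (edgeR adjusted p = 1.05e-09). The decline went on within elongating cells, from 162 and 191 CPM in the earlier cluster to 66.9 and 58.2 CPM in the later one (-0.93 ± 0.15, edgeR adjusted p = 2.65e-05). Along the ordering the peaks were 840 CPM in bin 4 in mouse 1 and 841 CPM in bin 6 in mouse 2, and the lowest bins had 58.0 and 44.8 CPM.

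Txnrd1 (ENSMUSG00000020250, plus strand of chr10:82833951-82897712), the cytosolic reductase of most cells, declined from pachytene cells on. Its level was 22.4 and 26.6 CPM in early cells, 29.1 and 27.7 CPM in pachytene cells, 10.6 and 10.3 CPM in the unnamed group, 5.07 and 5.64 CPM in round cells and 1.28 and 1.73 CPM in elongating cells, the last on 7 and 10 UMIs. The mice were close in each group and the groups from pachytene on did not overlap. The fall from pachytene to unnamed cells was -1.38 ± 0.19 on the log2 scale (edgeR adjusted p = 2.75e-06). The further steps passed narrowly (-0.70 ± 0.24, edgeR adjusted p = 0.0241, and -0.98 ± 0.36, edgeR adjusted p = 0.0257). The first of these was lost when any of its 4 sums was left out (edgeR adjusted p from 0.0697 to 0.15), and the second without round cells of mouse 2 (0.113) or elongating cells of mouse 1 (0.0739). Early and pachytene cells did not differ by the test (0.46 ± 0.21, edgeR adjusted p = 0.0776), and with the mouse as a block that step passed (0.45, edgeR adjusted p = 0.0492).

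As a share of the UMIs on Txnrd1, Txnrd2 and Txnrd3 together, Txnrd1 had 6.20% (exact 95% binomial interval 4.01 to 9.09) and 7.18% (5.56 to 9.10) in early cells. The share was 3.88% (3.46 to 4.33) and 3.89% (3.38 to 4.45) in pachytene cells, 1.64% (1.26 to 2.09) and 1.59% (1.28 to 1.96) in the unnamed group, 1.26% (0.781 to 1.92) and 1.33% (0.916 to 1.86) in round cells and 1.22% (0.492 to 2.50) and 1.37% (0.659 to 2.51) in elongating cells. The intervals of pachytene and unnamed cells were apart in both mice, those of early and pachytene cells were apart in mouse 2 and overlapped in mouse 1, and they overlapped from the unnamed group on. This share does not depend on the scaling, and the part of free RNA in it was not tested. Txnrd2 (ENSMUSG00000075704, plus strand of chr16:18426384-18479073), the mitochondrial reductase, had 18 and 15 UMIs in all cells and was not tested because its counts were too low. Its highest germ cell level was 3.74 and 1.69 CPM in early cells, on 4 UMIs in each mouse.

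Prdx6 (ENSMUSG00000026701, minus strand of chr1:161240112-161251219) encodes a peroxiredoxin that glutathione rather than thioredoxin reduces. It stood at 55.1 and 76.3 CPM in early cells, 264 and 278 CPM in pachytene cells, 204 and 214 CPM in the unnamed group, 140 and 158 CPM in round spermatids and 84.6 and 90.7 CPM in elongating spermatids, with the maximum in bin 4 of the ordering in both mice (311 and 324 CPM). The pachytene group was the highest of the 5 in both mice. The rise to pachytene was 2.27 ± 0.17 on the log2 scale (edgeR adjusted p = 1.31e-09). The step to the unnamed group was -0.31 ± 0.15 and did not pass with TMM scaling (edgeR adjusted p = 0.0714), while it passed with total UMIs (-0.37, edgeR adjusted p = 0.0165) and with the mouse as a block (-0.31, edgeR adjusted p = 0.00796). From round to elongating cells the value was 0.09 ± 0.15 with TMM scaling (edgeR adjusted p = 0.674) and -0.77 with total UMIs (edgeR adjusted p = 7.97e-05).

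Prdx6 has a close copy, and whether reads of that copy were counted as Prdx6 in germ cells was not tested. The last 498 of 500 bases of its transcript align to Prdx6b on chromosome 2 with 90.4% identity, and Prdx6b had the higher level in each germ cell group, with 522 and 612 CPM in early cells, 1331 and 1298 CPM in pachytene cells and 635 and 619 CPM in elongating cells. Both genes rose from early to pachytene cells (Prdx6b by 1.49 on the log2 scale, edgeR adjusted p = 8.8e-08). In Sertoli-like cells, only 6 in mouse 1 and 1 in mouse 2, the order was reversed. There Prdx6 had 25 and 12 UMIs (362 and 1056 CPM) and Prdx6b had 174 and 0 CPM.

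**Figure D3:**
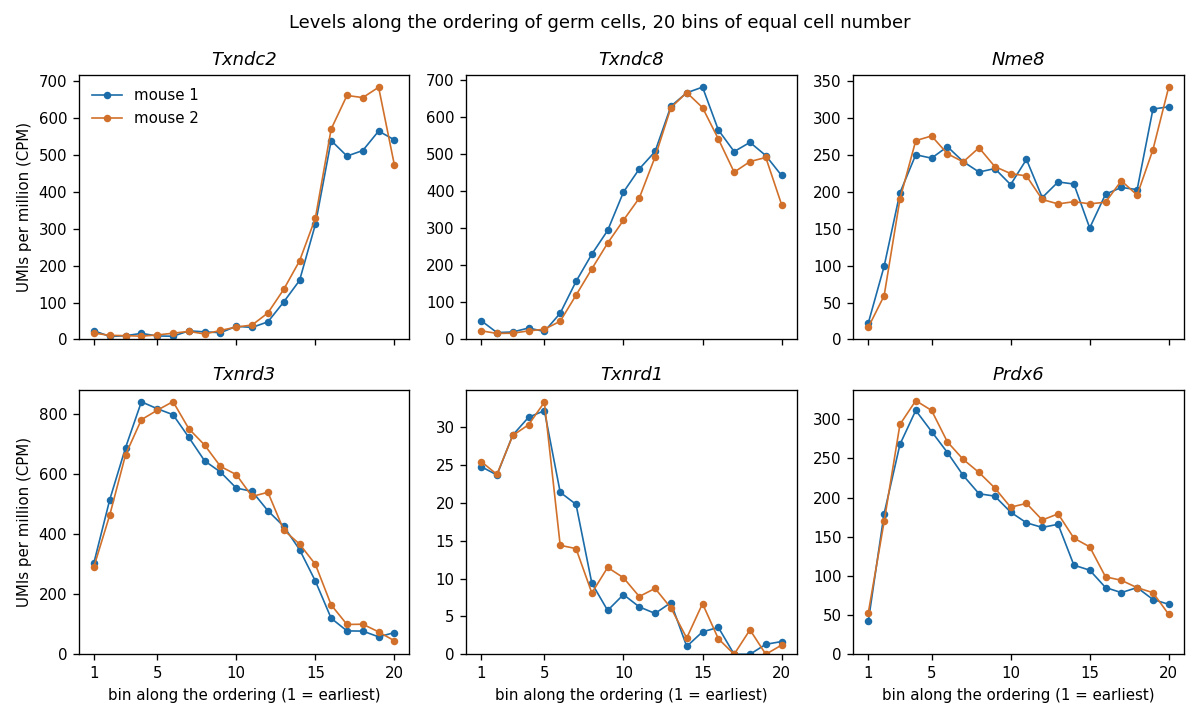
Level (y axis, CPM, from 0) of the 6 members with enough UMIs in 20 bins of equal cell number along the ordering of 2534 germ cells (x axis), for mouse 1 and mouse 2. The Txnrd3 peak at 840 and 841 CPM lies in bins 4 and 6, the Txndc8 peak in bins 15 and 14 and the Txndc2 peak in bin 19.

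Taken by step, 7 members could be tested and Txnrd2 could not. From early to pachytene cells 3 were higher (Nme8, Txnrd3, Prdx6) and 1 lower (Txn1), beside 25.1% of all 14716 genes tested that were higher and 23.6% that were lower. From pachytene to unnamed cells 2 were higher (Txndc2, Txndc8) and 1 lower (Txnrd1), beside 31.6% and 30.3% of all genes. From unnamed to round cells 2 were higher (Txndc2, Txndc8) and 2 lower (Txnrd1, Txnrd3), beside 24.9% and 19.9%. From round to elongating cells 3 were higher (Txndc2, Txndc8, Nme8) and 2 lower (Txnrd1, Txnrd3), beside 27.0% and 25.9%. From round cells to the earlier elongating cluster 1 of 6 was higher (Txndc2) and 1 lower (Txnrd3), beside 23.8% and 21.7%, and from the earlier to the later cluster 2 were higher (Txndc2, Nme8) and 1 lower (Txnrd3), beside 15.9% and 22.9%. The median log2 change of the members was 0.46, 0.28, -0.03 and 0.58 over the 4 main steps, beside 0.01, -0.04, -0.07 and -0.03 for all genes tested. Counts of 1 to 3 among 6 or 7 members are of the order of these shares, and nothing in them sets the thioredoxin system apart from all genes.

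Scaling moved the counts of all genes. With total UMIs in place of TMM, the median log2 change of all genes was -0.23 from early to pachytene, -0.09 from pachytene to unnamed, -0.32 from unnamed to round and -0.87 from round to elongating cells. The genes called higher and lower were then 2858 and 4512 in place of 3697 and 3468 in the first of these, 3115 and 4677 in place of 3668 and 2922 in the third, and 2131 and 7349 in place of 3968 and 3817 in the last. Relative to these shifts, Txndc2 was above and Txnrd3 and Txnrd1 were below the median gene under either scaling in the step to elongating cells, with 1.87, -1.85 and -1.82 on total UMIs.

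**Figure D4:**
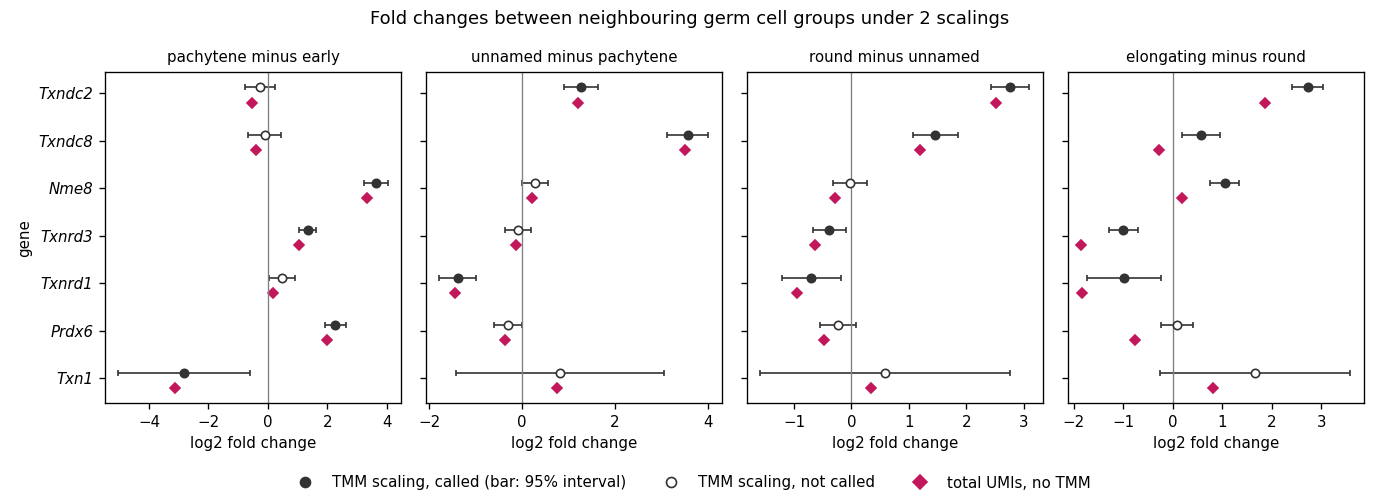
Log2 fold change (x axis) of 7 members (y axis) in the 4 steps between neighbouring germ cell groups, with TMM scaling (circles, filled where called, bars for 95% intervals) and with total UMIs (diamonds). In the step from round to elongating cells the 2 scalings put Txndc8 and Prdx6 on opposite sides of 0, and Txndc2, Txnrd3 and Txnrd1 on the same side.

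The order of levels over the 5 groups follows from the tests of all pairs. For Txndc2 it was elongating, round, unnamed and then early and pachytene, which did not differ by the test. Txndc8 had the same order with TMM scaling, and round and elongating cells change places in CPM. For Nme8, elongating cells were above pachytene, unnamed and round cells with TMM scaling. These 3 did not differ from one another by the test (round against pachytene 0.25 ± 0.14, edgeR adjusted p = 0.109), and early cells were lowest. In CPM, Nme8 was lower in elongating cells (218 and 225) than in the unnamed group (235 and 234). For Txnrd3, pachytene and unnamed cells shared the top, round cells followed, and early and elongating cells did not differ by the test with TMM scaling (-0.12 ± 0.14, edgeR adjusted p = 0.441), although their CPM did not overlap. For Txnrd1, early and pachytene cells shared the top, followed by unnamed, round and elongating cells.

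Genes whose level along the 20 bins was most like that of a member were sought among 7865 genes with at least 500 UMIs, by the lower of the 2 mice's Pearson coefficients on the log2 of CPM plus 10. They describe shared timing among bins that hold the same cells for both genes. For Txndc2 these were Rnf133 (0.9948), a ubiquitin ligase, Otub2 (0.9938), a deubiquitinase, and BC048507 (0.9928). For Txndc8 they were Cylc2 (0.9943), a cytoskeletal protein of the sperm head, Tescl (0.9917) and Actl7a (0.9905), an actin-like protein. For Nme8 the coefficients were lower, with Svip (0.9827), Aqp11 (0.97) and Prss39 (0.9659). For Txnrd3 they were Vdac2 (0.9936), a mitochondrial channel, Pom121l12 (0.9904) and Dynlt1a (0.9901), for Prdx6 Gm42918 (0.981), Prss21 (0.9782) and Ppp3r2 (0.9772), and for Txnrd1 Atxn7l3b (0.9618), Utp23 (0.9605) and Bbs10 (0.9599). No gene was sought for Txn1 and Txnrd2. Of the 18 genes named, 13 were among the 10 most alike with 10 bins. Those that were not were Atxn7l3b and Bbs10 for Txnrd1, Gm42918 and Ppp3r2 for Prdx6, and Dynlt1a for Txnrd3.

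Between the members themselves, Txndc8 and Txnrd1 ran most against each other along the bins in both mice (coefficients of -0.932 and -0.90 in mouse 1 and mouse 2), Txndc2 had -0.931 and -0.875 with Txnrd3 and -0.85 and -0.889 with Txnrd1, and Txnrd3 and Prdx6 ran most together (0.849 and 0.89). These are descriptions over 20 bins per mouse.

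Of the 71 listed genes that work with or beside thioredoxins, 59 could be tested. From early to pachytene cells 17 were higher and 17 lower (25.1% and 23.6% of all genes), from pachytene to unnamed 15 and 22 (31.6% and 30.3%), from unnamed to round 10 and 12 (24.9% and 19.9%), and from round to elongating 17 and 14 (27.0% and 25.9%). Their median log2 changes were -0.12, -0.19, -0.17 and 0.26. With total UMIs the counts were 11 and 19 (19.4% and 30.7% of all genes), 15 and 24 (30.5% and 33.4%), 9 and 23 (21.2% and 31.8%), and 8 and 26 (14.5% and 49.9%), with medians of -0.41, -0.24, -0.42 and -0.59. The named genes of each set are those with the largest called rise and fall between neighbouring groups, with a few fixed ones.

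Among peroxiredoxins and their repair enzyme, Prdx4 and Srxn1 rose in spermatids. Prdx4, a peroxiredoxin of the endoplasmic reticulum, went from 15.9 and 14.4 CPM in pachytene cells to 69.9 and 81.6 CPM in the unnamed group, 255 and 242 CPM in round and 765 and 705 CPM in elongating cells, with increases of 2.38, 1.96 and 2.42 on the log2 scale. Srxn1, the sulfiredoxin that restores overoxidised peroxiredoxins, reached 89.2 and 88.7 CPM in elongating cells from 2.02 and 2.31 CPM in pachytene cells, with its largest step from unnamed to round cells (2.73). Prdx1, a cytosolic peroxiredoxin that thioredoxin reduces, was highest in early cells, at 341 and 199 CPM, and fell by 1.92 on the log2 scale to pachytene cells. Of the 7 tested in the set, 3 were higher and 1 lower from round to elongating cells with TMM scaling (27.0% and 25.9% of all genes), and 2 were higher and 3 lower with total UMIs (14.5% and 49.9%). Prdx6b was one of those that changed sides, at 0.39 and -0.46.

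Of the other thioredoxin-like genes, the mitochondrial thioredoxin Txn2 passed no test between neighbouring groups with TMM scaling, at 131 and 154 CPM in early, 139 and 156 CPM in pachytene and 49.1 and 53.0 CPM in elongating cells. With total UMIs its steps from pachytene to unnamed (-0.36) and from round to elongating cells (-0.89) passed. Txnip, the inhibitor of thioredoxin, had low levels throughout, with its highest values of 15.5 and 13.0 CPM in pachytene cells, and fell by 2.79 on the log2 scale to the unnamed group. Tmx2, a membrane-bound relative, rose by 2.60 from unnamed to round cells, from 19.4 and 23.8 to 98.5 and 122 CPM.

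Of the 7 tested genes of glutaredoxins and glutathione synthesis or reduction, 2 were higher and 2 lower from unnamed to round cells, beside 24.9% and 19.9% of all genes, and 3 were higher and 1 lower from round to elongating cells, beside 27.0% and 25.9%. Glrx2, a glutaredoxin, rose from 32.4 and 36.3 CPM in the unnamed group to 130 and 144 CPM in round and 341 and 404 CPM in elongating cells (2.25 and 2.29 on the log2 scale). Gclc, the catalytic subunit for the first step of glutathione synthesis, fell by 3.11 from pachytene cells (26.2 and 26.7 CPM) to the unnamed group (2.19 and 3.46 CPM). Gpx4, the selenoprotein of the sperm mitochondrial capsule, had 1133 and 963 CPM in pachytene cells and 1719.5 and 1430.2 CPM in elongating cells, with rises of 0.91 from early to pachytene and 1.42 from round to elongating cells. Gpx6 rose by 4.36 from pachytene cells to the unnamed group, where it had 45.6 and 56.6 CPM, and no glutathione peroxidase had a called fall between neighbouring groups with TMM scaling. With total UMIs, Gpx6 was lower in elongating than in round cells (-0.76, edgeR adjusted p = 0.000402), and Gpx8 was lower in round than in unnamed cells (-1.22, edgeR adjusted p = 0.0306) and in elongating than in round cells (-2.44, edgeR adjusted p = 0.00951).

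The remaining sets each held genes in both directions. Sod1, the cytosolic superoxide dismutase, rose by 3.23 on the log2 scale from pachytene to unnamed cells, from 35.1 and 34.9 to 295 and 333 CPM, whereas the mitochondrial Sod2 fell by 1.61 from round to elongating cells. Msrb2, a methionine sulfoxide reductase, rose by 4.63 from round to elongating cells, though only to 3.11 and 2.93 CPM, after it fell by 3.43 from early to pachytene. For NADPH supply, G6pd2 rose by 3.72 from pachytene to unnamed cells, to 4.73 and 4.42 CPM, and Pgd fell by 2.70 from unnamed to round cells, to 0.241 and 0.342 CPM. Of the Nme family, Nme5 rose by 1.18 from pachytene to unnamed cells and Nme7 fell by 2.05 from round to elongating cells.

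Genes of selenoprotein synthesis are of interest since the reductases and Gpx4 carry selenocysteine. Of the 6 tested, 4 were lower and 1 higher from round to elongating cells under either scaling, beside 25.9% lower and 27.0% higher of all genes with TMM scaling and 49.9% and 14.5% with total UMIs, and 5 were lower from the earlier to the later elongating cluster, beside 22.9% of all genes. The median of the set in that last step was -1.39 on the log2 scale, beside -0.01 for all genes. Sephs2, which makes the selenium donor, went from 198 and 207 CPM in round to 55.7 and 57.8 CPM in elongating cells. Secisbp2, which binds the selenocysteine insertion element, was the one that rose from round to elongating cells (2.84, from 8.69 and 7.52 to 23.3 and 40.4 CPM), and Sephs1, the member of the set with the largest called decline, fell by 3.64 from early to pachytene cells, from 4.67 and 8.43 to 0.481 and 0.407 CPM.

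**Figure D5:**
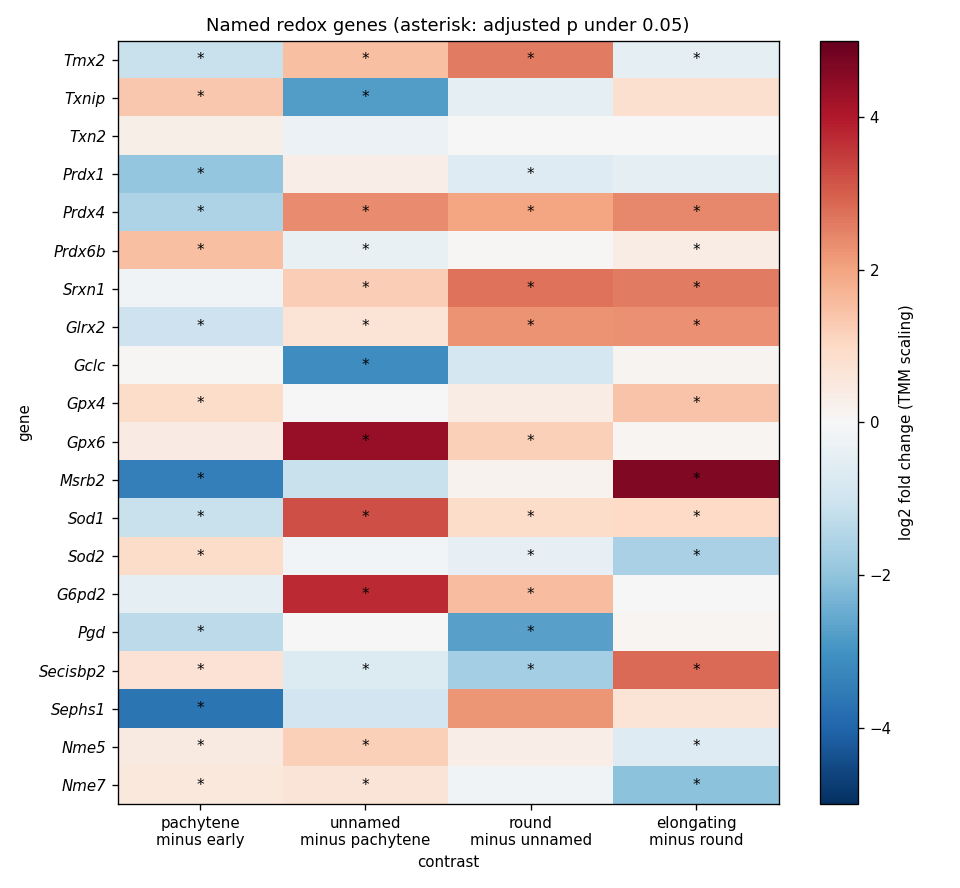
Log2 fold change with TMM scaling (colour, from blue for lower to red for higher) of the named redox genes (y axis) in the 4 steps between neighbouring germ cell groups (x axis), with an asterisk where the edgeR adjusted p was under 0.05. Prdx4, Glrx2 and Sod1 were lower in pachytene than in early cells and higher in each of the 3 later steps, and Txn2 has no asterisk. The last step of Sod1 (1.01 with TMM scaling) did not pass with total UMIs (0.16).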

How the data were processed

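Testes of 2 mice were measured in 1 droplet library each. The authors demultiplexed the reads with cellranger 2.0.0 and bcl2fastq 2.17.1.14, counted them on a repeat-masked GRCm38 genome (mm10 per the labels) with added repeat sequences, and combined both mice with downsampling of reads. The deposited values are whole UMI counts per gene and cell, not normalized. All 2552 cells were kept. Rows for repeats (1.42% of UMIs) were left out of the totals behind the CPM levels and of the tests. They were kept in the UMIs given per library and per cell, and in the clustering and naming of cells. Which barcodes belong to which mouse was read from their library number, taken as the mouse's number; a swap would exchange the mice and change no test.

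The 8 genes and the lists of related genes and markers were chosen with earlier results of these data known. Counts were scaled to the median, log2-transformed, and clustered by K-means (K = 9, 10 principal components, seed 42) without the 8 genes and the 71 listed genes. A cluster took the name of its best marker class if at least 3 of its markers had 1.5 times the CPM of all cells. Germ cells were ordered by diffusion pseudotime (100 neighbours, chosen after 15 neighbours had mixed the elongating clusters) and cut into 20 bins. scrublet called 25 doublets, which were kept.

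UMIs were summed per mouse and germ cell group, giving 10 sums, and tested with edgeR 4.0.16 (quasi-likelihood, TMM, filterByExpr, all 5 groups in 1 fit) with Benjamini-Hochberg adjustment over 14716 genes and a threshold of 0.05. Each group has 2 mice. The spread of a gene was estimated from all 10 sums together, with information shared across genes and the sums treated as independent. With 2 animals, the p-values do not measure how much animals differ. The elongating clusters were also fitted apart, a choice made after the clusters had been seen. Genes named from the list are the largest called rise and fall in each set, with Gpx4, Prdx4, Prdx6b, Txn2, Txnip and Sephs2, the last named after its values had been seen; for likeness, 3 genes per member are named. In simulated data for the step from unnamed to round cells, 151 of 200 genes changed 4-fold were recovered, with 18 false calls among 14716 genes. All other genes were left unchanged there, while 24.9% and 19.9% of genes were called higher and lower in the real step. The simulation therefore does not give the rate of false calls in the real data. The 5 sums of a mouse share an animal. Departures from the group mean, in log CPM, correlated at 0.037 to 0.202 between groups of the same mouse, and a fit with the mouse as a block was an alternative. DESeq2 1.42.0, other scalings, no filter, thinning to 5000 UMIs per cell, K = 10, the 2000 most variable genes, the listed genes kept in the clustering, doublets left out, and each sum left out in turn were further alternatives. Python 3.11.15, scanpy 1.11.5 and R 4.3.3 were used. Positions came from GENCODE (GRCm38) and promoter windows from RefSeq.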

Additional observations from a re-analysis of the deposited data

How the results depend on the processing

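With thinned cells, 36 of 40 shares of cells with a UMI and 22 of 40 levels of the members moved by more than 1 SD between the mice; shares fall with depth by construction. Counts of members called moved by over 1.5 times in 22 of 110 comparisons with an alternative, most often the count called lower, and the cause was not tested. For early to pachytene cells (1) it was 0 with thinned cells and 2 with the 2000 most variable genes, and 0 to 2 when 1 sum was left out. For pachytene to unnamed cells (1) it was 2 with total UMIs and with the replicate block. For unnamed to round cells (2) it was 1 with DESeq2 and with no filter, 0 with DESeq2 size factors and with thinned cells, and 0 when any of the 4 sums was left out. For round to elongating cells (2) it was 1 with DESeq2, with thinned cells and with the first elongating cluster alone, and 1 to 2 when 1 sum was left out, and the count called higher (3) was 1 with total UMIs and with that cluster alone. The counts called higher stayed within 1.5 times the main count in the other steps and settings run. Beside the calls given with the results, the replicate block made Txn1 from round to elongating cells pass (1.61, edgeR adjusted p = 0.0203), and the block lost no member's call.

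Direction changed for values that mostly had not passed the test. From early to pachytene cells, Txndc2 (-0.27) was 0.205 with thinned cells and 0.248 without doublets, and Txndc8 (-0.11) was 0.11 with thinned cells, 0.328 with the 2000 most variable genes, 0.352 without doublets, and from -0.724 without early cells of mouse 2 (edgeR adjusted p = 0.00642) to 0.582 without those of mouse 1 (0.025). Txn1, on few UMIs, ranged from -4.247 to 4.335, from -0.782 to 1.746 and from -0.353 to 2.173 in the first 3 steps when 1 sum was left out. Txnrd3 from pachytene to unnamed cells (-0.08) was 0.053 with DESeq2 and with its size factors. Nme8 from unnamed to round cells (-0.03) was 0.096 with both, 0.074 with thinned cells and -0.052 to 0.009 when 1 sum was left out. From round to elongating cells, Prdx6 (0.09) was -0.768 with total UMIs, -0.048 with no filter, -0.233 with the 2000 most variable genes and -0.085 to 0.153 when 1 sum was left out. In the same step, Txndc8 (0.58) was -0.277 with total UMIs and -0.797 in mean UMIs per cell, and Nme8 (1.05) was -0.32 in mean UMIs per cell. With the 2000 most variable genes no unnamed group formed, so its steps have no value there. Depth limits Txn1, Txnrd2 and, in spermatids, Txnrd1, which rest on few UMIs.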

Other observations

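Nxn, the gene of nucleoredoxin and one of the 71 listed genes, differed between the 2 animals in all 5 germ cell groups. It had 45.8 CPM in mouse 1 and 127 CPM in mouse 2 in early cells, 58.8 and 172 CPM in pachytene cells, 24.0 and 60.1 CPM in the unnamed group, 12.6 and 28.9 CPM in round cells and 6.23 and 11.6 CPM in elongating cells. Over all cells it had 890 and 2313 UMIs. With 1 library per animal this difference has no replicate, and it was picked after the values had been seen.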
